A study of Rattus norvegicus with 13 samples.

Results

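The imprinted growth genes described here were Igf2, H19, Cdkn1c, Dlk1, Meg3, Peg3, Plagl1, Mest, Grb10 and Ndn. This set of 10 genes, among 36174 gene names on the array, was chosen by name, with earlier results of these data known. All 13 thyroid arrays were searched for probes carrying these names, and every probe found was kept. The search gave 17 probes for 9 of the genes. Meg3 is listed on the array under the older name RGD1566401, a RefSeq synonym of Meg3, and added 5 probes. The set therefore held 22 of the 45598 probes on the array, of which 20 were bright enough to enter the comparison between groups.

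The thyroids came from male Wistar rats born to mothers that had received either potassium iodide (KI) or saline by gavage during pregnancy. The KI-treated group held 6 animals whose mothers received 1 mg/kg/day KI for 8 days from gestational day 9. The control group held 7 animals whose mothers received 0.9% NaCl over the same days, and no animal of either group was dosed itself. The tissue was taken 51 days after birth, 30 days after weaning, so every value is a level in the young rat long after the exposure. Each array measured RNA of 1 thyroid. The labels do not name the litters of the 16 mothers, so the p-values below treat littermates, if there were any, as independent animals.

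Imprinted genes are read from the copy inherited from only the mother or only the father, because the copies carry different DNA methylation at control regions set in the germ line. H19, Cdkn1c, Meg3 and Grb10 are known to be read from the maternal copy, and Igf2, Dlk1, Peg3, Plagl1, Mest and Ndn from the paternal copy. Many of them act on foetal and placental growth, where paternally read genes such as Igf2 tend to promote growth and maternally read genes such as Cdkn1c and Grb10 tend to restrain it, and most fall in level after birth. An array probe hybridises to RNA from both copies, so the parental origin of the RNA was not measured.

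H19 and Meg3 make long RNAs that code for no protein, and their levels were read with these 60-base probes, shown because the closest relations between animals described below rest on them. Capitals mark the letters AATAAA, which form the usual polyadenylation signal and occurred in 1 of the 6 probes.
H19 probe 1: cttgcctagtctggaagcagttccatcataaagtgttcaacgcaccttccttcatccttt
Meg3 probe 1: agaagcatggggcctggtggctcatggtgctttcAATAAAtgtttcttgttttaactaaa
Meg3 probe 2: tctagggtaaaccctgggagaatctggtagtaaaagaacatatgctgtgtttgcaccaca
Meg3 probe 3: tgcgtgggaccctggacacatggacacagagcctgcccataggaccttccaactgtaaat
Meg3 probe 4: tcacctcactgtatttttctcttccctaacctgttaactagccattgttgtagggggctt
Meg3 probe 5: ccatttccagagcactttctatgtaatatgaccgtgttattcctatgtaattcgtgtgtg
The probe annotation on the array uses the rat build rn4. It places the H19 probe at chr1:202822987-202823046 on the minus strand. The Meg3 probes lie on the plus strand of chromosome 6, with probe 5 at chr6:134120734-134120793, probe 3 at chr6:134135243-134135302, probe 2 at chr6:134136108-134136167, probe 4 at chr6:134145812-134145871 and probe 1 at chr6:134149467-134149526. The probes are numbered by brightness, probe 1 being the brightest of its gene, and the 5 Meg3 probes were designed on several listed transcript forms of that gene.

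Levels are on a log2 scale on which 0 is the 75th percentile of the background-subtracted signals of an array and each unit is a doubling. On the 13 arrays between 34840 and 41050 of 58717 gene spots stood well above background, and no gene spot was saturated. All 10 thyroid follicular markers were above background on all 13 arrays, and thyroglobulin (Tg), the precursor of thyroid hormone, lay between 7.64 and 8.21. The lymphocyte markers Cd3d and Cd3g averaged 1.25 in animal KI 1 and between -5.68 and -4.65 in the other 12 animals. Controls 4 and 6 were the arrays least like the rest, with median correlations of 0.959 and 0.968 to the other arrays against 0.978 to 0.983 elsewhere. Each difference between groups was fitted with limma over 25713 probes and adjusted by Benjamini-Hochberg over all of them. In this bulk tissue fewer cells of a type and less RNA per cell cannot be told apart.

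Of the 20 tested probes of the imprinted genes, 0 passed an adjusted p of 0.05 in the limma fit. The same was true of all 25713 probes, of which 0% passed, the lowest adjusted p being 0.416. At an unadjusted limma p under 0.05, 1 of the 20 probes differed, the Ndn probe, against a background of 11.3% of all tested probes. The count for the imprinted genes is therefore not above that background. By their brightest probes 8 of the 10 genes were lower in the KI-treated group, with a median difference of -0.19, whereas 11 of the 20 probes were lower with a median of -0.01. Over all tested probes 49.8% were lower in the KI-treated group at any size of difference. No probe of the 10 genes separated the groups without overlap, which 0.447% of all tested probes did.

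**Figure D1:**
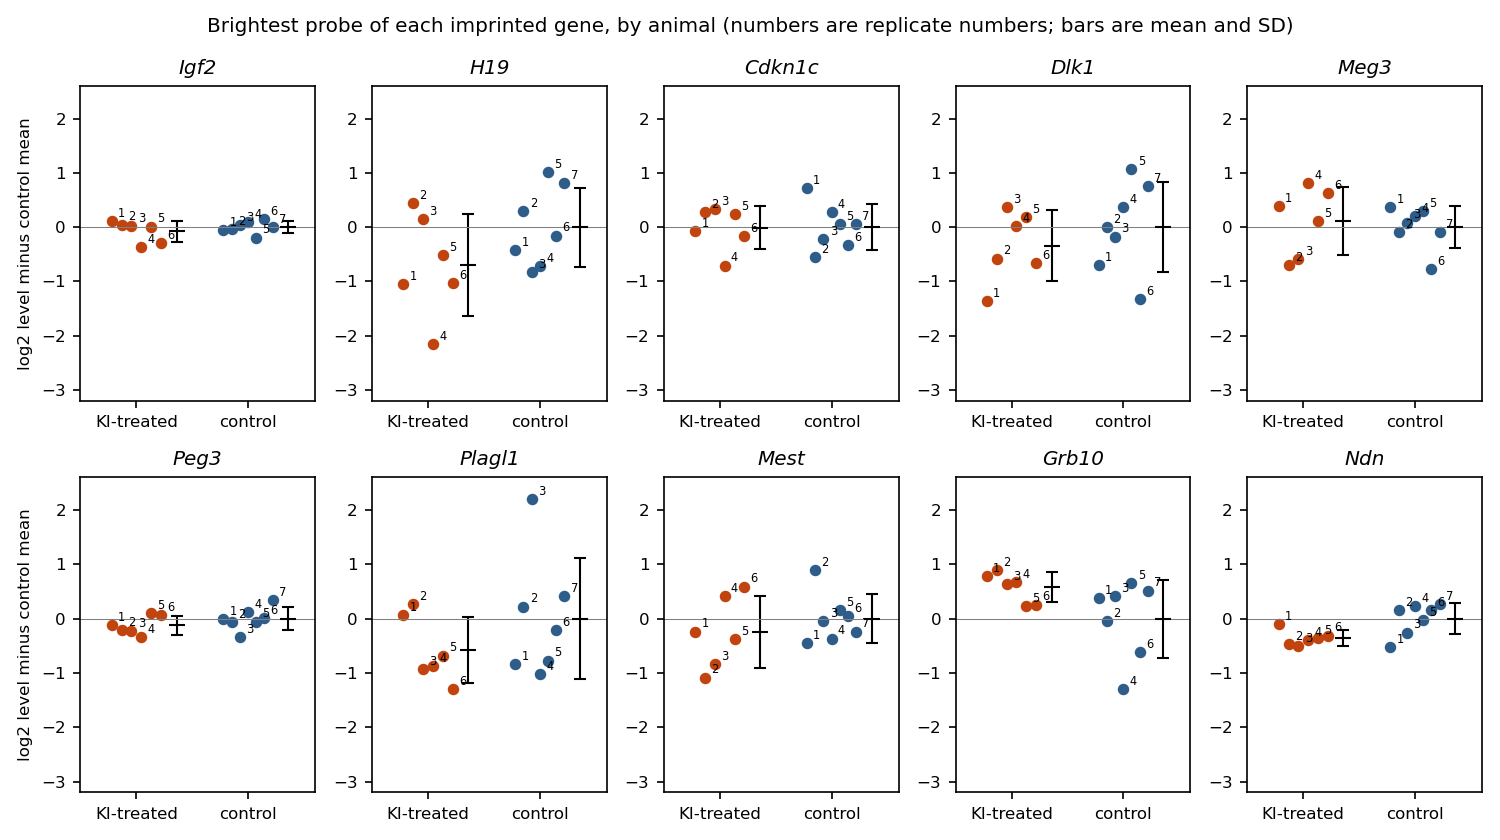
Level of the brightest probe of each imprinted gene in every animal, in log2 units relative to the control mean, with KI-treated animals in orange and controls in blue. Black bars give each group's mean and SD (n = 6 and n = 7). The groups overlap for every gene, and H19, Plagl1, Dlk1 and Grb10 spread over more than 2 log2 units.

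**Figure D2:**
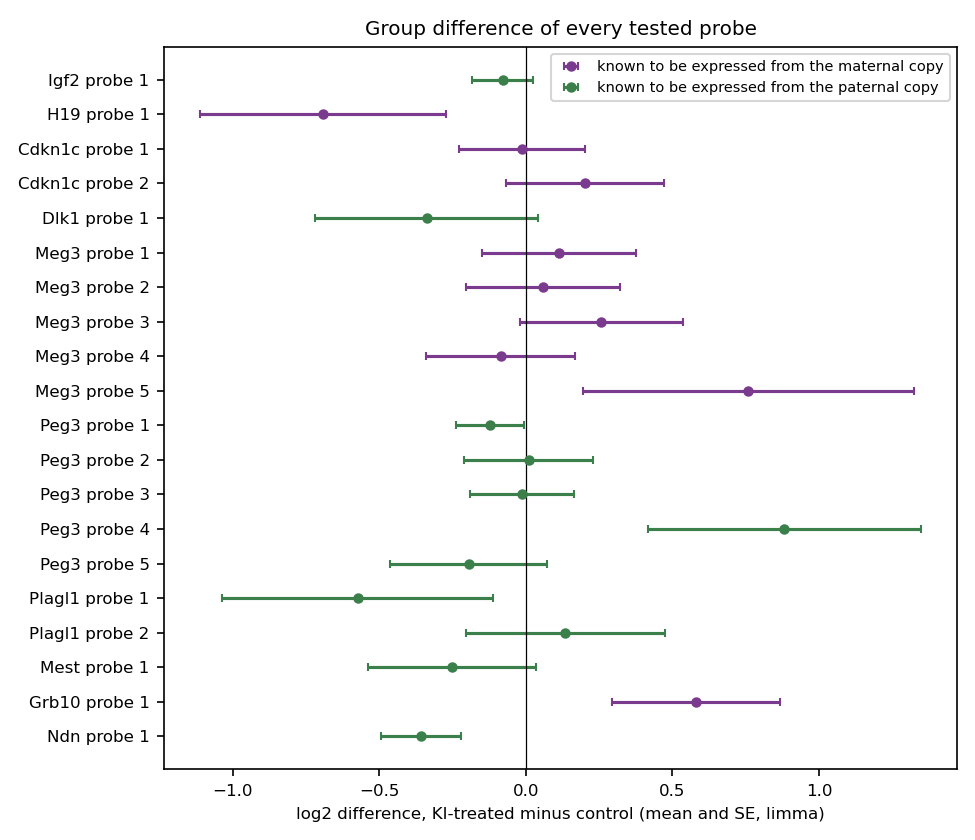
Difference between KI-treated and control animals for each of the 20 tested probes, in log2 units, with the limma SE as bars. Ndn, at -0.36, is the only probe with an unadjusted limma p under 0.05, and colours give the parental copy each gene is known to be read from, which the array did not measure.

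Ndn encodes necdin, a MAGE family protein known to restrain cell division, above all in neurons. Its probe lies at chr1:116596077-116596136 on the plus strand and was printed in 10 spots, whose median SD within an array was 0.06 against 0.23 between animals. In the KI-treated animals it ran from -0.10 through a median of 0.02 to 0.30. In the controls it ran from -0.11 through a median of 0.56 to 0.67. All 6 KI-treated animals lay below the control median, and 5 of the 7 controls lay above every KI-treated animal. Control 3, at 0.15, fell within the KI-treated range and control 1, at -0.11, just under it. Mean levels were 0.04 ± 0.14 (SD, n = 6) and 0.40 ± 0.29 (SD, n = 7), a difference of -0.36 ± 0.13 (SE) or 1.28-fold lower in the KI-treated group. The unadjusted limma p was 0.0193 and the adjusted p 0.44, and an exact two-sided permutation test over the 1716 splits of the 13 animals gave p = 0.0245. The difference was negative in 3 of 3 scan sessions, from -0.68 to -0.08, and in 4 of the 5 slides that held both groups, from -0.69 to 0.16. It was -0.28 with an unadjusted limma p of 0.069 when controls 4 and 6 were both left out, and -0.41 without KI 1.

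Grb10 encodes an adaptor protein that binds the insulin and IGF1 receptors and dampens their signalling. Its brighter probe, at chr14:92815584-92815643 on the minus strand, was the brightest-probe value furthest above 0, with a difference of 0.58 ± 0.29 (SE), an unadjusted limma p of 0.063 and an exact permutation p of 0.081. The KI-treated animals lay between -4.15 and -3.50 with a median of -3.73. The controls lay between -5.69 and -3.73 with a median of -4.01. The lowest 2 values of all animals were those of control 4, at -5.69, and control 6, at -5.00, the arrays that stood apart from the rest, and without both the difference was 0.20 with an unadjusted limma p of 0.231. Without control 4 alone it was 0.36. The difference was 1.72 in scan session 1, which held both of these controls, and 0.26 and 0.15 in the other sessions. With the scan session as a block it was 0.73 with an unadjusted limma p of 0.015 and an adjusted p of 0.21. A further Grb10 probe was not well above background on any array, so no difference is given for it.

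The Igf2, H19 and Cdkn1c probes lie near each other on chromosome 1, with 84 kb between the H19 and Igf2 probes and 928 kb between the Igf2 and Cdkn1c probes. Igf2 and H19 share enhancers and a control region bound by CTCF that directs the enhancers to Igf2 on the paternal copy and to H19 on the maternal copy. Igf2, the foetal growth factor, was among the least variable genes of the set. Its brighter probe, at chr1:202906641-202906700 on the minus strand, ran from -1.07 through a median of -0.68 to -0.59 in the KI-treated group and from -0.89 through -0.70 to -0.55 in the controls. KI 4 and KI 6, at -1.07 and -0.99, were the lowest animals, and the remaining 4 KI-treated animals lay within the control range. The difference was -0.08 ± 0.10 (SE), with an unadjusted limma p of 0.459, and it was -0.021 without KI 4. The second Igf2 probe was well above background on 4 arrays, 2 in each group, and was not tested.

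H19, whose RNA is abundant in the embryo and persists in skeletal muscle after birth, varied far more than Igf2. In the KI-treated group it ran from -2.48 through a median of -1.10 to 0.11, and in the controls from -1.15 through -0.48 to 0.68. KI 4 was the lowest animal, and control 5 at 0.68 and control 7 at 0.49 were the highest, with the groups overlapping over most of their range. The difference was -0.69 ± 0.42 (SE), 1.61-fold lower in the KI-treated group, with an unadjusted limma p of 0.122 and an exact permutation p of 0.164. It was negative in 2 of 3 scan sessions, from -2.49 to 0.73, and in 3 of 5 slides. Without KI 4 it was -0.40, and without KI 2 it was -0.92 with an unadjusted limma p of 0.044.

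H19 followed the skeletal muscle markers of the dissected tissue from animal to animal. The mean level of the 10 tested muscle markers, among them creatine kinase (Ckm) and the myosin heavy chains Myh1 and Myh4, ran from -3.75 in KI 4 to -0.06 in KI 2 in the treated group and from -1.93 in control 4 to 1.44 in control 5 in the controls. The lowest and the highest animal of this mean were also the lowest and the highest of H19. Across the 13 animals, with group means subtracted, Pearson's r between H19 and the muscle mean was 0.913 and Spearman's rho 0.94, each with a permutation p of 1e-05, the smallest that 100000 permutations can give, and an adjusted p of 0.0012 over the 120 relations of 10 genes to 12 marker lists. The r was 0.892 without the 2 animals farthest from the median of the muscle mean, 0.985 within the 6 KI-treated animals and 0.814 within the 7 controls. It was 0.908 with scan session means and 0.986 with slide means subtracted, and between 0.873 and 0.967 when each animal was left out in turn. All 10 muscle markers correlated positively with H19, from 0.441 for Acta1, the skeletal actin, to 0.95 for Tnni2, the fast troponin I. All 10 were also lower in the KI-treated group, Actn3, the fast-fibre actinin, by the most with -1.66 ± 0.68 (SE) and an unadjusted limma p of 0.03. The marker mean differed by -0.93 between groups, with an exact permutation p of 0.207. The part of muscle RNA in the group difference of H19 was not tested. The muscle satellite cell markers Pax7 and Myod1 were too dim to test.

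**Figure D3:**
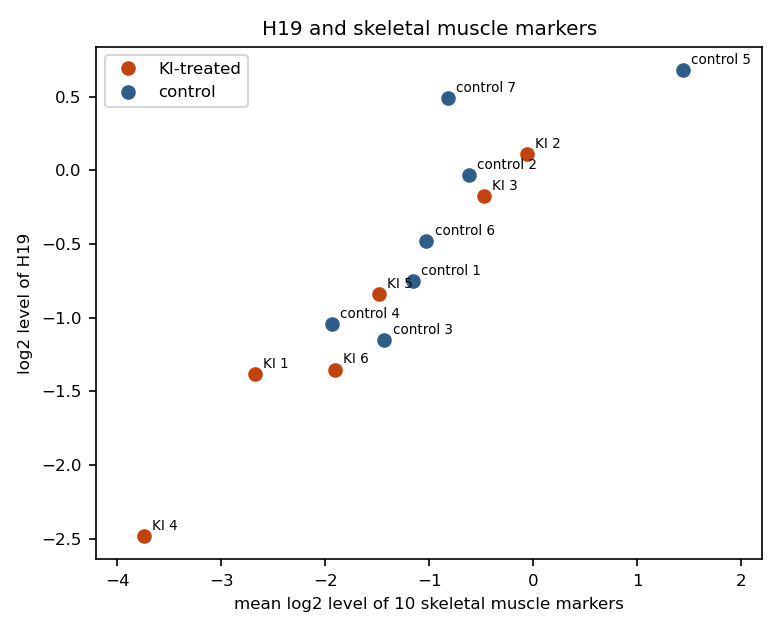
Log2 level of H19 against the mean log2 level of 10 skeletal muscle markers in the 13 animals, KI-treated in orange and control in blue. H19 rises with the muscle markers in both groups (r = 0.913, group means subtracted), from KI 4 at the lower left to control 5 at the upper right.

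Cdkn1c encodes the cell cycle inhibitor p57, a maternally read brake on growth. Its brighter probe ran from -1.90 through a median of -1.11 to -0.86 in the KI-treated group and from -1.75 through -1.14 to -0.48 in the controls. The lowest animal was KI 4 and the highest control 1, and the remaining animals of both groups lay between them without order by treatment. The difference was -0.01 ± 0.21 (SE), and a second probe at chr1:203835291-203835350 gave 0.20 ± 0.27 (SE), with unadjusted limma p-values of 0.956 and 0.467. These probes followed each other between animals, with r = 0.812 and rho = 0.824 after subtraction of group means (adjusted permutation p = 0.0032 for r), and r = 0.718 without the 2 animals farthest from the median.

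The Dlk1 and Meg3 probes lie on chromosome 6 in a shared imprinted domain, where a control region between the genes keeps Dlk1 silent on the copy that makes Meg3. Dlk1 encodes a membrane protein related to the Notch ligands that holds precursor cells undifferentiated. Its probe, at chr6:134028313-134028372 on the plus strand, was dim and stood well above background on 11 of 13 arrays. It ran from -6.22 through a median of -5.14 to -4.50 in the KI-treated group and from -6.18 through -4.86 to -3.79 in the controls. KI 1 and control 6 were the lowest animals, and the difference of -0.34 ± 0.38 (SE) had an unadjusted limma p of 0.391. It ran from -0.13 without KI 1 to -0.56 without control 6, and was -0.050 with slide and -0.11 with scan session as a block.

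The 5 Meg3 probes, spread over the transcribed region given above, gave the same order of animals to a large extent. Their pairwise r after subtraction of group means ran from 0.696 to 0.956 with rho from 0.61 to 0.885, and all 10 pairs had an adjusted permutation p of at most 0.011 over the 22 probe pairs compared. Without the 2 animals farthest from the median of the first probe r ran from 0.573 to 0.916. Probe 1, printed in 10 spots with a median SD of 0.05 within an array, ran from -0.91 through a median of 0.04 to 0.60 in the KI-treated group and from -0.98 through -0.13 to 0.16 in the controls. KI 2 at -0.91, KI 3 at -0.79 and control 6 at -0.98 were the 3 lowest animals on this probe, the remaining 10 lay between -0.31 and 0.60, and KI 4 was the highest of the 13 animals on all 5 probes.

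The 5 differences of Meg3 between groups were 0.11 ± 0.26, 0.06 ± 0.26, 0.26 ± 0.28, -0.09 ± 0.25 and 0.76 ± 0.56 (SE) from probe 1 to probe 5. The unadjusted limma p-values lay between 0.2 and 0.829. Probe 5, the dimmest, was above background on 12 arrays and was lowest in controls 4 and 6, at -5.80 and -6.16. Without these controls its difference was 0.09. With scan session or slide as a block the difference of probe 5 was 0.93 or 0.86 and its unadjusted limma p 0.002 or 0.005, while its lowest adjusted p under any setting was 0.199. KI 2, KI 3, control 4 and control 6 were the arrays of scan session 1, in which the mean of probe 1 was -0.67 against 0.07 and 0.06 in the other sessions, so the low Meg3 values fell together with a scan session that held both groups.

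**Figure D4:**
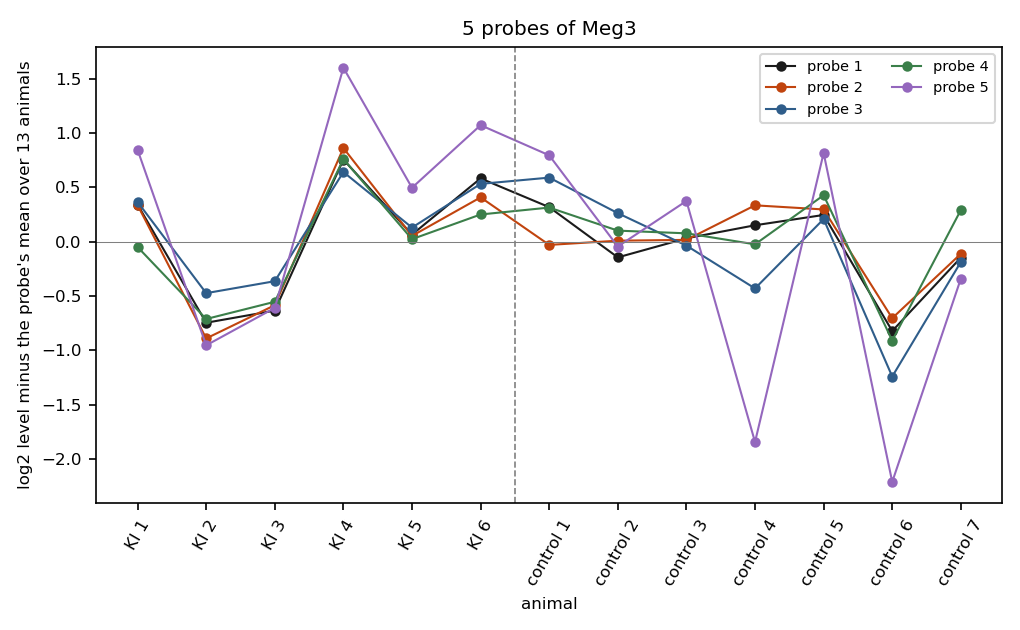
Log2 level of each of the 5 Meg3 probes in the 13 animals, with the mean of each probe over the animals subtracted and a dashed line between KI-treated and control animals. All 5 probes are low in KI 2, KI 3 and control 6 and high in KI 4, and probes 3 and 5 are also low in control 4.

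Peg3 encodes a zinc finger protein that binds DNA and is read from the paternal copy, and it had 5 probes. The brightest, at chr1:65528305-65528364 on the plus strand, varied little, with 0.36 ± 0.17 (SD, n = 6) in treated animals against 0.48 ± 0.21 (SD, n = 7) in controls. The difference was -0.12 ± 0.12 (SE), with an unadjusted limma p of 0.313. Probes 2 and 3 differed by 0.01 and -0.01 and followed each other between animals with r = 0.814 and rho = 0.819, the only one of 10 Peg3 probe pairs with an adjusted permutation p under 0.05, at 0.0057, and r = 0.743 without the 2 animals farthest from the median. Probe 4, at chr1:65525312-65525371, did not follow the others. It was at -3.56 in KI 2 and -2.64 in KI 3 and between -6.61 and -4.61 in the other 11 animals, which made its difference 0.88 ± 0.47 (SE) with an unadjusted limma p of 0.079. Without KI 3 that difference was 0.51. Probe 5, above background on 8 arrays, gave -0.20 ± 0.27 (SE), and the file describes its transcript as an uncharacterised non-coding RNA whose gene identifier is that of Peg3.

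Plagl1 encodes a zinc finger transcription factor that binds at several other imprinted genes, and Mest encodes a protein of the hydrolase family that is abundant in mesoderm of the embryo. The brighter Plagl1 probe, at chr1:7921813-7921873, ran from -4.05 through a median of -3.54 to -2.49 in the KI-treated group and from -3.78 through -2.98 to -0.56 in the controls. Control 3, at -0.56, stood far above the next animal, control 7 at -2.34, and the difference was -0.57 ± 0.46 (SE) with this animal and -0.21 without it. The second Plagl1 probe, above background on 8 arrays, gave 0.14 ± 0.34 (SE) and was not high in control 3. The Mest probe has no position in the array annotation. It ran from -0.90 through a median of -0.12 to 0.78 in the KI-treated group and from -0.26 through 0.14 to 1.08 in the controls, and KI 2 and KI 3, at -0.90 and -0.64, were the only animals below every control. Its difference was -0.25 ± 0.29 (SE), with an unadjusted limma p of 0.393, and ran from -0.085 without KI 2 to -0.42 without KI 6.

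Co-variation of the 10 genes was measured between animals by their brightest probes, with group means subtracted. Over the 45 pairs the median r was 0.03 and the median size of r 0.257, against 0.034 and 0.312 over all pairs of tested probes. Of the 45 pairs 24 (53.3%) were positive, against 52.9% of all pairs of tested probes. None of the 45 passed an adjusted permutation p of 0.05, while 4 had an unadjusted permutation p under 0.05. That test was not run on all pairs of tested probes, so no background share can be set beside the 4. The pair with the lowest p was Cdkn1c and Mest, with r = -0.795 (permutation p = 0.00113, adjusted p = 0.0508) and rho = -0.846 (adjusted permutation p = 0.0387) over the 13 animals. The r of this pair was -0.802 without the 2 animals farthest from the median of Cdkn1c, -0.816 within the KI-treated animals and -0.813 within the controls. It was -0.88 with scan session means and -0.756 with slide means subtracted, where the adjusted permutation p was 0.599. Animals high in Cdkn1c, such as KI 2, KI 3 and control 1, were thus low in Mest, and animals low in Cdkn1c, such as KI 4 and control 2, were high in Mest. Of all pairs of tested probes 3.61% lay at least as far from 0.

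The other 3 pairs joined Igf2 to Meg3, H19 to Meg3 and Igf2 to Mest, with r of -0.686, -0.613 and -0.635, rho of -0.692, -0.615 and -0.489, and adjusted permutation p-values of 0.515 each. Their r were -0.374, -0.349 and -0.128 without the 2 animals farthest from the median of the first gene. They thus rested in part on those animals. Of all pairs of tested probes 9.68%, 15.3% and 13.5% lay at least as far from 0. With scan session means subtracted the r of these pairs were -0.514, -0.664 and -0.554. Within the KI-treated animals the r were -0.697, -0.948 and -0.831, and within the controls -0.659, -0.034 and -0.213. Neighbouring genes were not among these pairs, with r of 0.256 for H19 and Igf2, 0.362 for Cdkn1c and Igf2, and 0.135 for Dlk1 and Meg3, with rho of 0.22, 0.258 and -0.0385, and adjusted permutation p-values of 0.802, 0.676 and 0.942. Without the 2 animals farthest from the median these r were -0.251, 0.175 and -0.298.

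**Figure D5:**
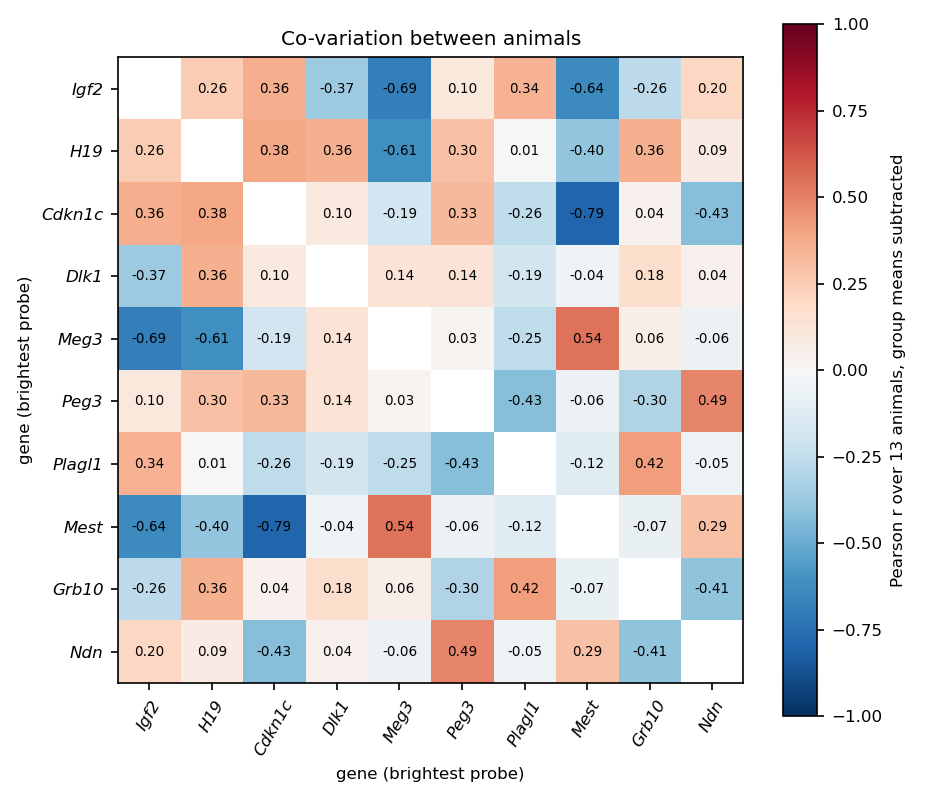
Pearson r between the brightest probes of each pair of the 10 imprinted genes over 13 animals, with group means subtracted. Cdkn1c and Mest have the lowest value, -0.79, and Igf2 with H19 and Dlk1 with Meg3, which share domains, have 0.26 and 0.14.

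Among the relations to the marker lists, only H19 with skeletal muscle and Cdkn1c with the parathyroid markers passed an adjusted permutation p of 0.05. The parathyroid markers were Pth, the parathyroid hormone, at 6.08 to 6.87 on all arrays, and Gcm2. Cdkn1c correlated with their mean with r = 0.854 (adjusted permutation p = 0.033) and rho = 0.714 (adjusted permutation p = 0.351), and Mest had r = -0.745 (adjusted permutation p = 0.132) and rho = -0.698 (adjusted permutation p = 0.363). Without the 2 animals farthest from the median of the marker mean r was 0.718 for Cdkn1c and -0.684 for Mest. Taken singly, the markers gave Cdkn1c an r of 0.79 with Gcm2 and 0.52 with Pth. For Mest these were -0.67 and -0.54. The Cdkn1c relation passed in only 1 of 23 other settings, in which r ran from 0.628 to 0.92. The parathyroid mean lay between 0.55 and 1.27 in the KI-treated group and between -0.21 and 1.19 in the controls, a difference of 0.50 with an exact permutation p of 0.0466, and its part in the levels of Cdkn1c and Mest was not tested. The 2 markers differed in opposite directions, Pth by -0.16 ± 0.11 (SE) and the dim Gcm2, above background on 11 arrays, by 1.17 ± 0.36 (SE), with unadjusted limma p-values of 0.152 and 0.00628 and adjusted p-values of 0.521 and 0.44. For the other 10 marker lists, which covered follicular cells, C cells, fibroblasts, satellite cells, adipocytes, lymphocytes, nerve, cartilage, endothelium and erythroid cells, none of the relations to the 10 genes passed. Some of these lists were reduced to few tested genes, 1 of 3 for satellite cells, 2 of 8 for lymphocytes and 3 of 5 for cartilage. The group difference of the list means lay between -0.22 for satellite cells and 0.74 for lymphocytes, the latter through KI 1. The erythroid mean was higher in the KI-treated group by 0.37 with an exact permutation p of 0.036.

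The genes most like each member in pattern were taken from 12787 named genes by r after subtraction of group means, as a description of 13 arrays. For H19 they were Trdn, Tnnc2 and Pgam2, all known muscle genes, with r of 0.962, 0.962 and 0.957. For Cdkn1c they were Proser2, Edn1 and Man1a1 (0.944, 0.943 and 0.943), and for Mest they were Doc2a, Pprc1 and Trmt61a (0.943, 0.931 and 0.927). Dlk1 was closest to Kcns2, Olr1490 and Oxct2a (0.951, 0.942 and 0.94), and Grb10 to Aptx, Dock1 and Med23 (0.949, 0.941 and 0.93). Igf2 was closest to Rnf125, Anxa3 and Ndufv1 (0.897, 0.876 and 0.847), and Meg3 to Ssc4d, Tarbp1 and Srsf2 (0.919, 0.915 and 0.895). Ndn was closest to Ndufb10, Kcnh1 and Ppil1 (0.859, 0.857 and 0.855), Peg3 to Ascl3, Spon1 and Shprh (0.858, 0.856 and 0.854), and Plagl1 to Greb1, Znfx1 and Npr3 (0.817, 0.784 and 0.758). Each is the highest of all genes searched, and no test was made of them.

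Of a list of 46 other genes taken as imprinted in rodents, 33 had a tested probe. Whether each is imprinted in the thyroid was not measured, and Igf2r is also among the IGF2 partners below. None passed an adjusted limma p of 0.05, the lowest being 0.44, and 9 had an unadjusted limma p under 0.05, of which 8 were lower and 1 higher in the KI-treated group. Over all tested probes 4.31% were lower and 6.96% higher at that p. The 33 genes had a median difference of -0.10, with 23 lower, against a median of 0.00 over all tested probes. The largest of the 9 was Blcap, a small membrane protein gene, at 0.75 ± 0.32 (SE), and it was 0.29 without controls 4 and 6. The 8 lower genes were Usp29 at -0.61, Kcnq1, a potassium channel gene, at -0.53, Rasgrf1, a Ras activator, at -0.30, Snurf at -0.30, Slc22a18 at -0.28, Nnat at -0.27, Begain at -0.27 and Gnas, which encodes the stimulatory G protein subunit acting below the thyrotropin receptor, at -0.23. The Gnas difference had an exact permutation p of 0.00408, while its other 3 probes gave 0.48, -0.41 and 0.69. It kept an unadjusted limma p under 0.05 in 20 of 27 other settings and was -0.055 with quantile normalisation and -0.051 with normexp and quantile normalisation. Usp29 was -0.17 under the latter, with an unadjusted limma p of 0.112, and -0.29 with the deposited log2 values. Its probe was dim, with a mean level of -6.09, and stood well above background on 9 arrays. The second probes of Begain and Snurf differed by -0.38 and -0.26.

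Snurf lies in the imprinted cluster that also holds Ndn. Its level averaged 0.05 ± 0.11 (SD, n = 6) after prenatal KI against 0.36 ± 0.19 (SD, n = 7) in controls, with an unadjusted limma p of 0.012 and an exact permutation p of 0.009. Snrpn, which is read with Snurf from a shared transcript, had a difference of 0.04 ± 0.12 (SE). Of the remaining genes of the cluster Magel2 differed by -0.41 ± 0.36, Peg12 by 0.00 ± 0.21, Ube3a by 0.04 ± 0.14 and Atp10a by 0.60 ± 0.29 (SE), none with an unadjusted limma p under 0.05. Atp10a, higher in the KI-treated group, had an unadjusted limma p of 0.059 and an exact permutation p of 0.036. Dio3, at the end of the Dlk1 and Meg3 domain, encodes the deiodinase that inactivates thyroid hormone, and it differed by 0.06 ± 0.45 (SE).

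The receptors, binding proteins and signalling partners of IGF2 were read from a list of 18 genes, of which 17 had a tested probe. None passed an adjusted limma p of 0.05, and 2 of the 17 had an unadjusted limma p under 0.05, against 11.3% of all tested probes. Igfbp4, a binding protein that sequesters IGFs, was at 2.47 ± 0.11 (SD, n = 6) against 2.77 ± 0.28 (SD, n = 7), a difference of -0.30. Igfbp6, which prefers IGF2, differed by 0.47 ± 0.21 (SE). The 2 largest differences of the list were those of Igfbp6 and of Igfbp7, at -0.42 ± 0.46 (SE). The Igfbp7 difference moved with the setting, from -0.14 with slide as a block and -0.17 with scan session as a block or without KI 2 to -0.93 without controls 4 and 6, where its unadjusted limma p was 0.031. The median of the 17 genes was -0.09, with 12 lower. Igf2r, the receptor that clears IGF2, differed by 0.02 ± 0.10 and the brighter probe of Insr, the insulin receptor, by -0.01 ± 0.13 (SE). A dimmer Insr probe, well above background on 9 arrays, differed by 0.52 ± 0.27 (SE), with an unadjusted limma p of 0.074. Ctcf, the factor bound at the H19 control region, differed by 0.01 ± 0.09 (SE).

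Promoter windows of 300 bases, from 250 bases before to 50 after each start in the RefSeq build GRCr8, were found for 8 of the 10 genes, with 9 windows in all. Their GC content lay between 54.3% and 79.7%, against a median of 51.7% over 33469 rat promoters. A ratio of observed to expected CpG of at least 0.6 was found in 5 of the 9 windows and in 34.4% of all promoters. The letters GGGGCCCC, a short form of the PLAGL1 motif searched on both strands, occurred in 1 of the 9 windows, that of Peg3, and in 0.858% of all promoters. Such a match is a description of the letters and not of binding.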

How the data were processed

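Thyroid RNA of 13 rats was hybridised to 1-colour Agilent arrays. The authors scanned the arrays and deposited Agilent Feature Extraction (version 10.7.3.1) intensity values per spot, background-subtracted as the processed signal, and a table of deposited log2 values. Array headers name the build rn4. Control spots and outlier spots were left out, each array's log2 processed signals were scaled to its 75th percentile, and spots of a probe were averaged. The 25713 of 45598 probes that stood well above background on 6 or more arrays were fitted with limma 3.58.1 in R 4.3.3, KI-treated against control, without covariates, with Benjamini-Hochberg adjustment, threshold 0.05. The fit was tested on simulated data. Each member probe had an exact permutation test, and correlations 100000 permutations within groups (Python 3.11.15, numpy 2.4.6). All probes of the 10 genes are named, with their 3 closest genes and the genes of the other lists at an unadjusted p under 0.05 or among the 2 largest differences. The members and gene lists were chosen with earlier results of these data known. Relations to marker lists and between probes of a gene and the fits without controls 4 and 6 were added after the data were seen. The number of arrays, not spot depth, limits precision. Slides (6) and scan sessions (3) come from the headers. Cortex arrays were not analysed here.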

Additional observations from a re-analysis of the deposited data

Results flagged for a closer look

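In a screen of 44 groups, that is 22 probes in 2 groups, the lowest or highest animal stood apart from its group by Dixon's test at the 95% level in 3 cases, and chance alone flags about 1 in 20 groups. All 3 were control 6 on Meg3 probes. On probe 1 it was at -0.98, with the next control at -0.31 and the highest at 0.16. On probe 2 it was at -1.91, with the next control at -1.31. On probe 4 it was at -4.22, with the next control at -3.33. Control 6 was 1 of the 2 arrays with the lowest median correlation to the others, and KI 2 and KI 3 of the same scan session were similarly low on these probes.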

How the results depend on the processing

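Results were recomputed under 27 other settings for the group comparison and 23 for the correlations. The adjusted count for all probes stayed at 0 except with array weights (7 probes, all lower) and without control 2 (1 probe), a range of 0 to 1 when 1 animal was left out. The unadjusted count for all probes was 4443 with the scan session as a block and 2066 to 4364 with 1 animal left out, the highest without control 1. The split of higher against lower unadjusted calls (1790 and 1109) became 1312 and 2463 with normexp and the 75th percentile, 1387 and 1267 with the methods' t-test, 1684 and 1531 without the filter, 2053 and 2079 with array weights, 959 and 1293 without control 6 and 951 and 1412 without controls 4 and 6. No probe of the imprinted genes passed the adjusted threshold under any setting, the lowest adjusted p being 0.199. Their unadjusted count, 1, was 2 with the deposited log2 values, with array weights and under the replicate block, 3 with slide or scan session as a block, 0 without controls 4 and 6, and 1 to 2 with 1 animal left out. Ndn stayed lower in all 27 settings, from -0.44 to -0.28, with an unadjusted p under 0.05 in 25 of them. Its p was 0.09 under the replicate block. The unadjusted count of other imprinted genes, 9, was 4 under the replicate block and 6 to 10 with 1 animal left out. That of the IGF2 partners, 2, was 4 with normexp and the 75th percentile, 5 with array weights, 1 under the replicate block and with the methods' t-test, and 0 to 2 with 1 animal left out.

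Small differences changed sign. Cdkn1c probe 1 was 0.0039 with the deposited values and 0.024 with array weights (-0.10 to 0.13 with 1 animal left out). Meg3 probe 4 was 0.0098 with slide and 0.016 with scan session as a block (-0.25 to 0.047). Meg3 probes 2 and 3 were -0.0055 and -0.029 without controls 4 and 6, and with 1 animal left out Meg3 probe 1 ran from -0.026 to 0.27 and probe 2 from -0.11 to 0.24. Peg3 probe 2 was -0.081 with quantile normalisation and -0.077 with normexp and quantile, -0.029 with normexp and the 75th percentile, -0.028 with the deposited values, -0.092 with array weights and -0.22 without controls 4 and 6 (-0.14 to 0.10). Peg3 probe 3 was 0.00039 under the replicate block (-0.13 to 0.068). Plagl1 probe 2 was -0.073 with normexp and the 75th percentile, -0.072 with array weights and -0.14 without controls 4 and 6 (-0.075 to 0.36). The cause was not tested.

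The count of co-varying pairs was 1, Cdkn1c with Mest, with quantile normalisation, with normexp and quantile, with the deposited values, with scan session means subtracted and with Spearman's rho, and 0 to 1 with 1 animal left out. The count of marker relations, 2, was 1 with all 4 other normalisations, without subtraction of group means, with slide means subtracted, with Spearman's rho and without controls 4 and 6, 0 under the replicate block, where H19 with skeletal muscle had an adjusted p of 0.232, and 1 to 2 with 1 animal left out. The labels do not say whether the replicate numbers pair the animals. Deviations of same-numbered animals correlated between -0.11 and 0.07, which cannot decide whether they were paired.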
